A study of Mus musculus with 40 samples.

Results

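Citrate links the mitochondrion, the cytosol and the outside of the cell, and 9 genes that carry it across membranes, make it or use it were followed in RNA from the mouse cerebellum. They were chosen by name: the plasma membrane carriers Slc13a5 and Slc13a3, the mitochondrial citrate carrier Slc25a1, and the enzymes Cs, Aco1, Acly, Acss2, Acaca and Fasn. All 9 were found by their Ensembl gene IDs among the 54331 rows of the deposited table. All 9 were also among the 21367 genes tested, those that reached 10 in 4 or more libraries; Slc13a5 passed through the WT and CSB libraries alone.

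The samples were cerebella of male C57BL6 mice. Genotype labels were WT, INDY, CSB and DKO, and the diet was standard (SD) or ketogenic (KD). On SD there were 4 WT, 6 INDY, 6 CSB and 4 DKO libraries, and on KD there were 4, 6, 5 and 5 in the same order, which makes 40. INDY is another name of Slc13a5, and Ercc6 encodes CSB, a factor of transcription-coupled DNA repair. The labels do not give an age, how either allele was made or what DKO stands for, nor do they say that libraries came from separate animals, so p-values measure the spread between these libraries, which may be technical.

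Citrate is made in mitochondria by citrate synthase (Cs) from acetyl-CoA and oxaloacetate, and Slc25a1 exports it to the cytosol in exchange for malate. There ATP citrate lyase (Acly) splits it into acetyl-CoA and oxaloacetate, acetyl-CoA carboxylase 1 (Acaca) turns acetyl-CoA into malonyl-CoA, and fatty acid synthase (Fasn) builds fatty acids from these. Slc13a5 brings extracellular citrate into cells together with sodium, so it feeds the same cytosolic pool from outside.

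Values are normalised estimated read counts per gene, and the sequencing depth behind them is unknown. Their sums ran from 23736702 to 32247186 per library. Of the tissue markers, 11 of 12 granule cell genes and 12 of 12 Purkinje cell genes stood at 10 or more in every library. So did 13 of 21 forebrain genes and 10 of 18 choroid plexus genes, so this count alone does not check the tissue label. Forebrain markers were uneven, with mean log2 levels from 5.59 to 10.15, and 12 libraries lay above 7.13, a limit set 1 above the median. The liver level ran from 1.14 to 9.01 and was highest in CSB SD 6 (9.01), INDY SD 10 (8.66) and INDY KD 22 (8.24). DKO SD 1 stood apart, with the highest forebrain level (10.15) and the lowest granule cell and Purkinje cell levels (7.82 and 9.33, where the next lowest library had 10.37 and 10.75). Ercc6 ran from 382.5 to 876.2 in the CSB and DKO libraries and from 632.7 to 1070 in the WT and INDY libraries, with WT KD 25 the lowest of the latter. In whole tissue, fewer cells of a type and less RNA per cell cannot be told apart.

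Slc13a5 was read in every WT and CSB library and was almost absent from INDY and DKO. On SD the WT libraries held 136.8, 108.3, 115.5 and 161.2, and the CSB libraries held 95.29 to 128.1 with a median of 113.2. On KD the WT libraries held 82.06, 160.0, 114.2 and 95.15, and the CSB libraries held 134.6, 93.16, 145.6, 143.7 and 155.3. Of the 21 libraries of INDY and DKO, 19 listed it at 0. The other 2, INDY KD 15 and DKO KD 47, held 0.8239 and 0.9344, where no WT or CSB library was under 82.06. The groups with and without the carrier therefore did not overlap on either diet.

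**Figure D1:**
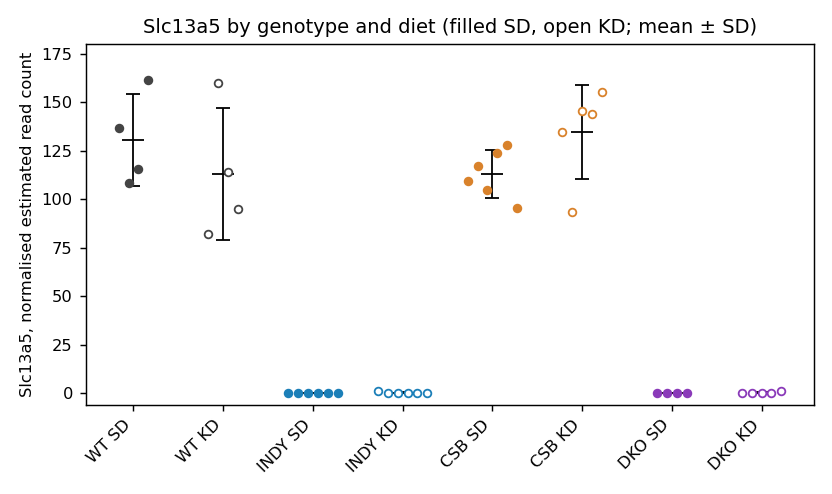
Slc13a5 in each of the 40 libraries (points, normalised estimated read count on a linear axis) by genotype and diet, filled for SD and open for KD, with the group mean ± SD in black. The 19 WT and CSB libraries sit between 82.06 and 161.2, and the 21 INDY and DKO libraries sit at or below 0.9344.

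In the limma fit on log2(value + 1), with Benjamini-Hochberg adjustment over all tested genes, Slc13a5 differed by -6.84 between INDY and DKO on one side and WT and CSB on the other, averaged over diets (SE 0.11). Genes were tested where at least 4 libraries held 10 or more, which all 9 genes met. Slc13a5 met it only through the groups in which it was read and so had to differ, and its p is not given as support. The -6.84 is a difference of fitted levels and no fold, since the lower groups were listed at 0 and the size depends on the added constant: it was -7.78 with 0.5 and -4.63 with 5. The single comparisons gave -7.02 for INDY against WT on SD, -6.64 on KD, -6.83 for DKO against CSB on SD and -6.87 on KD, each with an SE of 0.22. Marker levels of other tissue moved with the averaged comparison: 21 of 21 forebrain genes (median difference 0.58), 21 of 21 liver genes (0.951) and 18 of 18 choroid plexus genes (0.196) had a difference above 0. Of the cerebellar markers, 0 of 12 granule cell genes (-0.356) and 1 of 12 Purkinje cell genes (-0.32) had one. None of these markers was called, and their part in the differences of the 9 genes was not tested, beyond the fits with levels as covariates.

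Few other genes were called in these comparisons. In the averaged one 3 of 21367 genes were called (0.014%), Slc13a5, the mitochondrial gene mt-Nd3 and the pseudogene Gm28438, and 2004 genes had an unadjusted p under 0.05. INDY against WT gave 1 gene on SD (0.00468%) and 2 on KD (0.00936%), where the second was Heg1. DKO against CSB gave 1 gene on SD (0.00468%) and 6 on KD (0.0281%). Slc13a5 lies on chromosome 11 of GRCm38, at 72241989 to 72267222 on the minus strand. Of the 209 tested genes within 5 Mb of it, limma called 0 in the averaged comparison, with 26 (12.4%) at an unadjusted p under 0.05 against 9.38% of all genes.

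Where the carrier was read, its levels overlapped between diets and between WT and CSB. The means were 130.5 ± 23.8 in WT SD (SD, n = 4), 112.9 ± 34.1 in WT KD (n = 4), 113.0 ± 12.3 in CSB SD (n = 6) and 134.5 ± 24.2 in CSB KD (n = 5). Ordered by mean log2 value, WT KD was lowest at 6.79, then came CSB SD at 6.83, WT SD at 7.02 and CSB KD at 7.06. No gap between neighbours exceeded the larger of their SDs, which ran from 0.16 to 0.41, and all 4 groups overlapped. KD against SD was -0.24 in WT (SE 0.24, limma adjusted p = 0.673) and 0.23 in CSB (SE 0.21, limma adjusted p = 0.984), with 95% intervals of -0.73 to 0.26 and -0.19 to 0.66. The WT difference was -0.42 without WT KD 12 and -0.099 without WT KD 7, and the CSB difference was 0.36 without CSB KD 18.

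Per kilobase of annotated exon, Slc13a5 was also the least abundant of the 9 genes where it was read. Its median level was 23.7 per kilobase in the WT and CSB libraries. Over all 40 libraries Slc13a3 stood at 78.1, Acss2 at 144.2, Aco1 at 190.2, Acaca at 219.8, Slc25a1 at 248.6, Fasn at 484.9, Cs at 946.8 and Acly at 1192 per kilobase. Cs and Acly, which make and split citrate, thus stood highest, and the plasma membrane carriers lowest. The length used is the union of all annotated exons, 10163 bases for Acss2 and 17074 for Acaca, and can exceed that of the transcripts read. The order of the genes between depends on it. By median value Acss2 (1466) lay above Aco1 (855.0) and Slc25a1 (538.1). Kidney tubule markers, listed because Slc13a3 is a kidney carrier, were near the floor, with mean log2 levels of 1.53 to 3.69 and 4 of 10 genes under 10 in every library.

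The genes most like Slc13a5 over the 19 WT and CSB libraries were Sec22b (Pearson's r = 0.81 of log2 values), a vesicle trafficking protein, and Nbn (r = 0.77), a DNA break repair factor, followed by Dhrs11, Zfp68 and Smim15 at 0.72 each. They were ranked among 14172 genes, with no test, and the labels name no batch. The 8 other citrate genes had r of -0.32 (Fasn) to 0.16 (Aco1) with Slc13a5 over the same libraries. Over all 40 libraries, where the ranking follows the genotype, Cgn (0.54) and Rrad (0.53) came first, and the 8 genes had r of -0.27 to -0.06.

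The 8 other genes differed in how far they varied between libraries. Aco1 was the steadiest, from 760.6 to 933.7 over 40 libraries (coefficient of variation 5.34%). Cs ran from 4345 to 6071 (8.5%), and Acss2 from 996.8 to 1703 (10.0%). Fasn ran from 4330 to 7792 (14.2%), Acaca from 2739 to 6006 (16.8%) and Acly from 3712 to 8936 (18.0%). The carriers varied most: Slc13a3 ran from 252.0 to 642.1 (20.2%) and Slc25a1 from 313.0 to 767.8 (20.6%). For each of the 8 the lowest and the highest group overlapped.

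**Figure D2:**
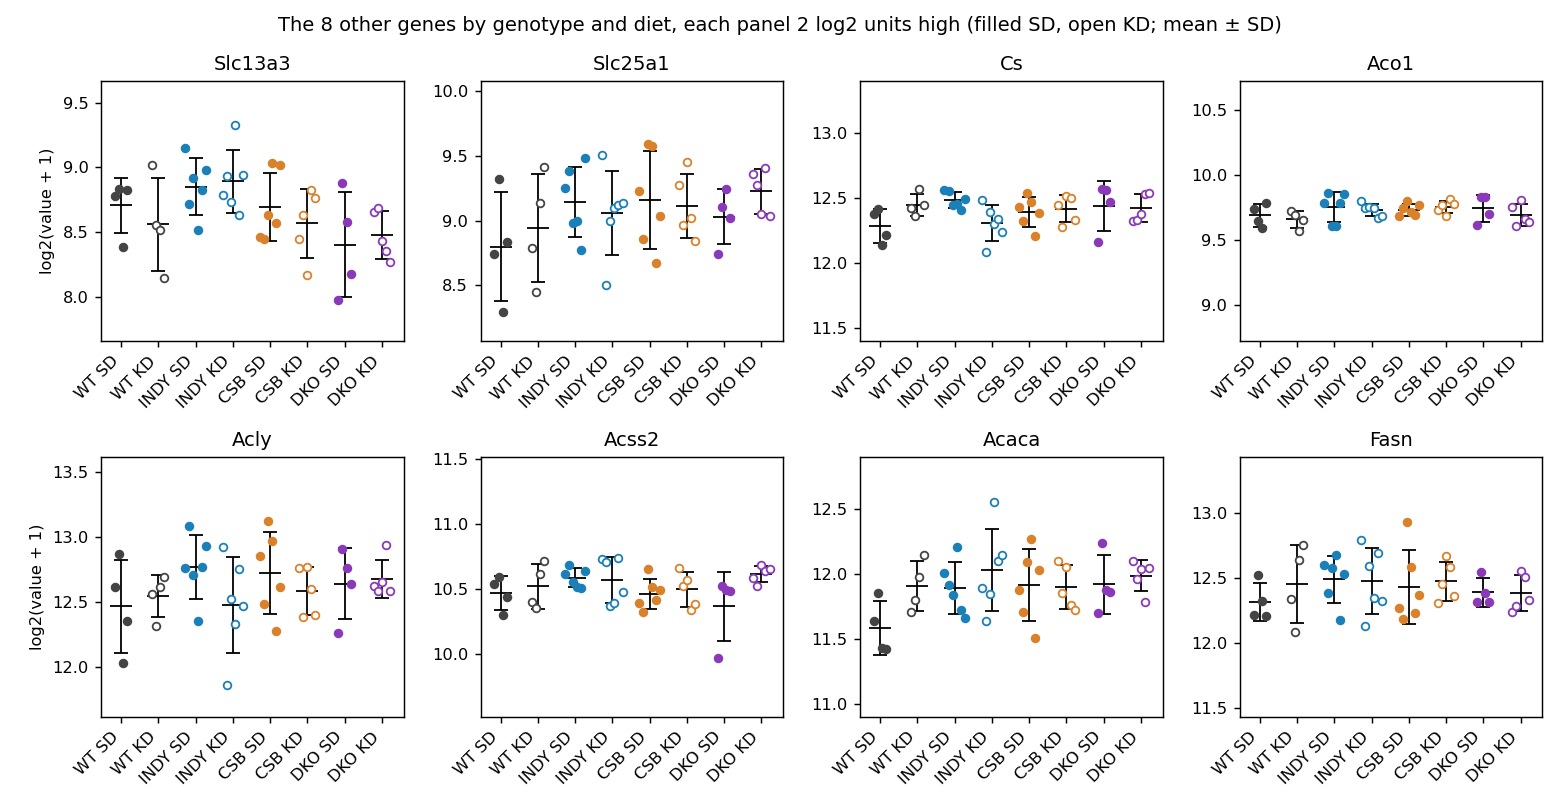
The 8 other genes in each library (points, log2(value + 1)) by genotype and diet, filled for SD and open for KD, with the group mean ± SD in black; every panel spans 2 log2 units. Group means of a gene differ by 0.10 (Aco1) to 0.48 (Slc13a3), and points of the lowest and highest group overlap in every panel.

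Much of this variation was shared between genes. After each gene's log2 values were centred on the mean of their group, Slc25a1 and Acly had r = 0.84 over 40 libraries (rho = 0.82), and Cs and Acly had r = 0.83 (rho = 0.82). The permutation p within groups was 1e-05 for both coefficients of both pairs, the smallest that 100000 permutations can give (adjusted 9.3e-05 over 28 pairs). Without the 2 libraries farthest from the median of the first gene, r was 0.81 and 0.79. It was 0.87 and 0.92 in the 28 libraries of low forebrain level, and 0.73 and 0.77 in the 12 of high level. The exporter of mitochondrial citrate, the enzyme that makes it and the enzyme that splits it thus moved together within groups.

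Of the 28 pairs 13 had an adjusted permutation p under 0.05, and all 13 had r above 0. How many pairs of all tested genes would pass was not counted, so this count does not set these genes apart from others. Slc25a1 and Cs had r = 0.71 (rho = 0.69, permutation p = 1e-05 for each, adjusted 9.3e-05), and 0.65 without the 2 farthest libraries. Slc25a1 and Fasn had r = 0.66 (permutation p = 0.00013, adjusted 0.00073) with rho = 0.57 (permutation p = 0.0011, adjusted 0.0038), and r = 0.66 without the 2 farthest. Acly and Fasn had r = 0.58 (permutation p = 0.00044, adjusted 0.0018) with rho = 0.56 (permutation p = 0.00098, adjusted 0.0038), and r = 0.48 without the 2 farthest, 0.66 in the 28 libraries and 0.34 in the 12. Aco1 stood apart from the lipid enzymes, with r of -0.07 with Acaca and -0.06 with Fasn. Its called partner was Slc13a3 (r = 0.48, permutation p = 0.005, adjusted 0.014; rho = 0.48, permutation p = 0.0062, adjusted 0.016), at 0.42 without the 2 farthest, 0.29 in the 28 libraries and 0.78 in the 12.

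**Figure D3:**
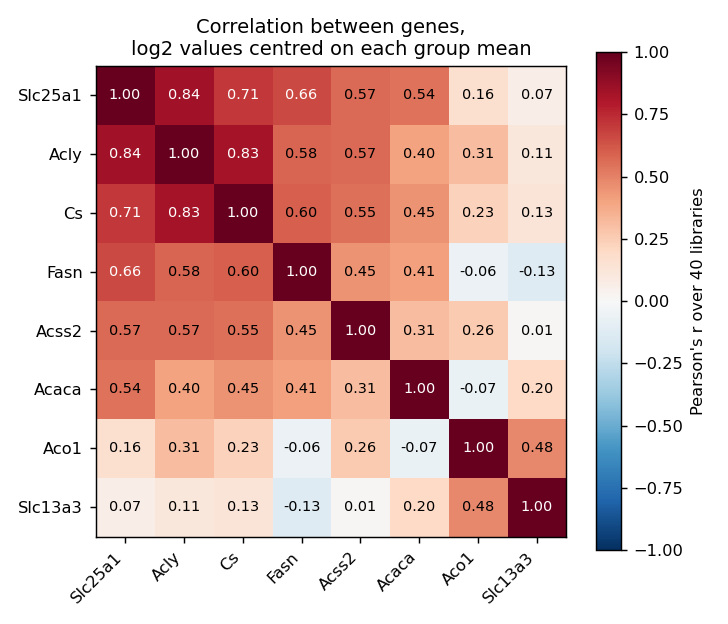
Pearson's r between the 8 other genes over 40 libraries, from log2 values centred on each group mean; red is above 0 and blue below. The block of Slc25a1, Acly, Cs, Fasn and Acss2 holds values from 0.45 to 0.84, while Aco1 and Slc13a3 have -0.13 to 0.48 with the other genes.

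The 200 bases before the RefSeq start (GRCm38.p6) are shown for the 4 genes of the strongest pairs, because they moved together. They read 5′ to 3′ on the gene's strand, and capitals mark GGGCGG and CCAAT on either strand.
Slc25a1, chr16:17928220-17928419, minus strand: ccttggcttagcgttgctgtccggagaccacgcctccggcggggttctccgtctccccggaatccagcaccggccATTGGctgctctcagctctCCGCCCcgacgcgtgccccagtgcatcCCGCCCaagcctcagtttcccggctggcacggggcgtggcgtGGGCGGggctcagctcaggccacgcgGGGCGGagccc
Acly, chr11:100528001-100528200, minus strand: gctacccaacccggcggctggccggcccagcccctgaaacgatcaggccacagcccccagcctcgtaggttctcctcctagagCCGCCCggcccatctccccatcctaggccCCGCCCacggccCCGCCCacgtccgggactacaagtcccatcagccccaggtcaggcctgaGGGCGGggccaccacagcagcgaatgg
Cs, chr10:128337527-128337726, plus strand: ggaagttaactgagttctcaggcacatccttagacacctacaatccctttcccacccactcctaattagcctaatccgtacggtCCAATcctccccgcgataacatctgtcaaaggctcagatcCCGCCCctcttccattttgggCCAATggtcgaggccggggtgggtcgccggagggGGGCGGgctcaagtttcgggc
Fasn, chr11:120824548-120824747, minus strand: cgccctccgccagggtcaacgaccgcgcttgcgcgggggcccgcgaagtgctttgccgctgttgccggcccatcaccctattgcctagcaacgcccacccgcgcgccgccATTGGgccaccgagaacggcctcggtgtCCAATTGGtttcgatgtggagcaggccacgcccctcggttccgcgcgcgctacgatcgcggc
GGGCGG occurs 4 times before Slc25a1, 4 times before Acly, 2 times before Cs and not before Fasn. CCAAT occurs 1 time before Slc25a1, 2 times before Cs and 3 times before Fasn, where a pair of matches on opposite strands overlaps, and not before Acly. No motif of these is in all 4 windows. Over 32851 RefSeq windows of 200 bases 31.1% hold GGGCGG and 29.4% hold CCAAT. The E-box CACGTG (5.26% of windows) and the sterol elements TCACNCCAC (0.858%) and TCACNCGAC (0.207%) were searched on both strands and are not in these 4 windows.

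Markers of myelinating cells moved with the same genes. The oligodendrocyte level, the mean log2 value of 14 markers such as Mbp and Mog (1 of them, Fa2h, is also in the lipid synthesis list), ran from 10.99 to 12.65 between libraries. Centred in the same way, it had r = 0.84 with Slc25a1 (rho = 0.78, permutation p = 1e-05 for each, adjusted 0.00044 over 88 pairs of gene and marker list), and 0.80 without the 2 libraries of farthest gene level. With Acly it had r = 0.81 (rho = 0.76, permutation p = 1e-05 for each, adjusted 0.00044), and 0.76 without the 2 farthest. With Fasn it had r = 0.71 (permutation p = 5e-05, adjusted 0.0015; rho = 0.64, adjusted permutation p = 0.0059), and 0.62 without the 2 farthest. Cs followed at r = 0.60 (adjusted permutation p = 0.0032; rho = 0.53, 0.011) and Acss2 at r = 0.51 (adjusted permutation p = 0.018; rho = 0.61, 0.0076), with 0.61 and 0.60 without the 2 farthest. Acaca (r = 0.43, adjusted permutation p = 0.10), Aco1 (0.10) and Slc13a3 (-0.08) did not pass. Libraries rich in oligodendrocyte RNA were thus rich in the exporter of citrate and in the enzymes that turn it into fatty acids, with Acaca below the threshold.

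These relations were not even across libraries. In the 28 libraries of low forebrain level the oligodendrocyte level had r = 0.89 with Slc25a1, 0.90 with Acly, 0.82 with Cs, 0.60 with Acss2 and 0.74 with Fasn. In the 12 of high level it had 0.61, 0.23, 0.11, 0.17 and 0.80. With the oligodendrocyte level taken out of both genes, r was 0.01 in place of 0.58 for Acly and Fasn and 0.18 in place of 0.66 for Slc25a1 and Fasn. It was 0.51 for Slc25a1 and Acly and 0.74 for Cs and Acly. The r of Acly and Fasn thus fell more than that of Cs and Acly. These values are over all 40 libraries and carry no test, and the relation to the marker level differed between the 28 and the 12. What part of the shared variation of any pair goes with this marker level was not tested.

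Slc13a3 passed with another marker list, and so did some genes named above, while Aco1 passed with none by r or rho. Slc13a3 moved with the meningeal fibroblast level, 12 markers such as Dcn and Col1a1 with levels of 6.10 to 9.57 (r = 0.62, permutation p = 0.00018, adjusted 0.0032; rho = 0.63, adjusted permutation p = 0.0023). It was 0.57 without the 2 farthest libraries, 0.65 in the 28 and 0.69 in the 12. Acss2 moved against the choroid plexus level (r = -0.60, permutation p = 0.0011, adjusted 0.012; rho = -0.60, adjusted permutation p = 0.0076), at -0.58 without the 2 farthest, -0.60 in the 28 and -0.58 in the 12. It also moved against the meningeal fibroblast level (r = -0.52, adjusted permutation p = 0.029). Fasn moved against the granule cell level (r = -0.43, adjusted permutation p = 0.022) and the Purkinje cell level (r = -0.47, adjusted permutation p = 0.018). By rho alone Slc25a1 passed against both (-0.53 and -0.51) and Cs against the Purkinje cell level (-0.49). How many of all tested genes would pass with these marker lists was not counted. In all, 16 of the 88 pairs passed by r, 12 of them above 0, among them the microglia level with Slc25a1, Cs, Acly, Acaca and Fasn at r of 0.51 to 0.60. By rho the microglia level passed with Slc25a1 (0.56) and Cs (0.55) and not with the other three.

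**Figure D4:**
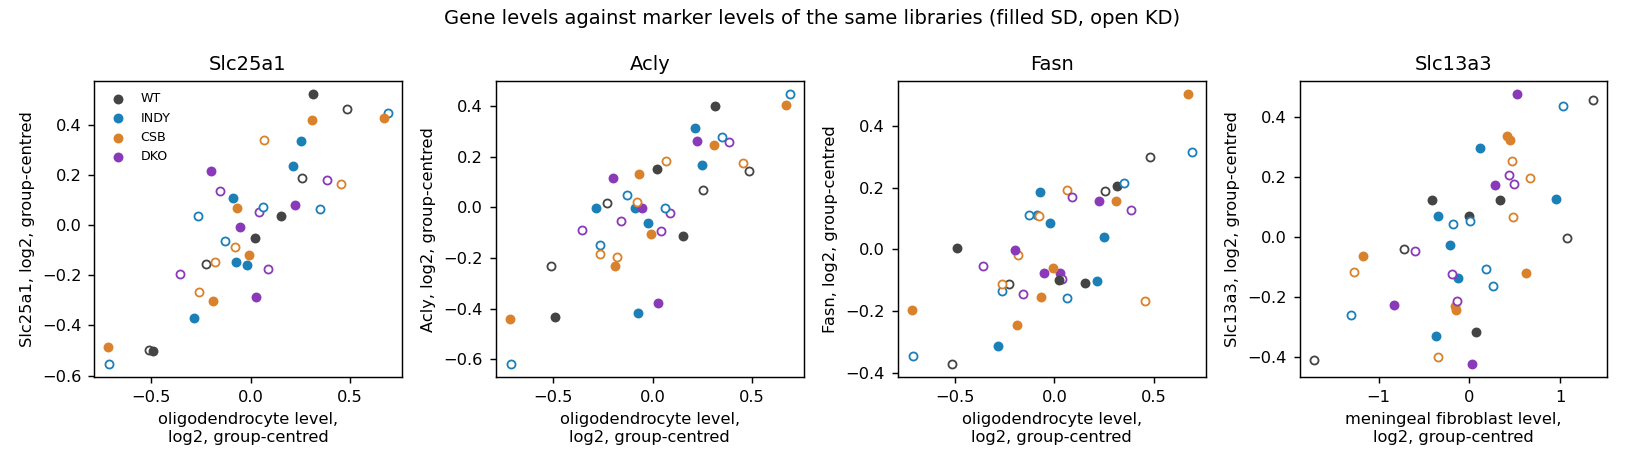
Log2 level of Slc25a1, Acly and Fasn against the oligodendrocyte level, and of Slc13a3 against the meningeal fibroblast level, in 40 libraries, each centred on its group mean; colours are genotypes, filled for SD and open for KD. The points rise from lower left to upper right with r of 0.84, 0.81, 0.71 and 0.62.

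Loss of the Slc13a5 transcript went with no called change in the 8 other genes. For INDY and DKO against WT and CSB, averaged over diets, limma called 0 of the 8, where 0.014% of all tested genes were called, and 0 of the 8 had an unadjusted p under 0.05. The log2 differences ran from 0.02 to 0.13, all above 0, with a median of 0.04 against 0.005 over all tested genes. Acaca had the highest, 0.13 (SE 0.07, limma adjusted p = 0.512), and Slc25a1 followed with 0.11 (SE 0.10, limma adjusted p = 0.610). Slc13a3, the other SLC13 carrier of the set, differed by 0.02 (SE 0.08, limma adjusted p = 0.910), with a 95% interval of -0.15 to 0.20. Over the 8 genes the 95% bounds ran from -0.15 to 0.31, and every interval held 0. The intervals differed in width, from -0.04 to 0.08 for Aco1 and from -0.08 to 0.31 for Slc25a1. A difference within a gene's own interval could not be told from 0.

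**Figure D5:**
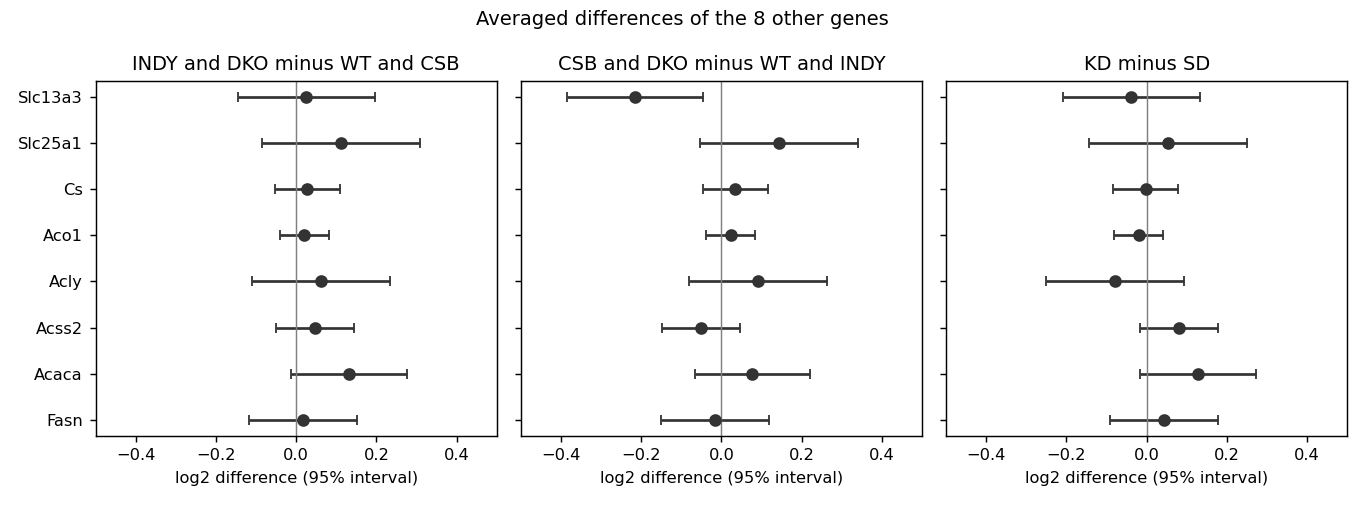
Log2 differences (points) of the 8 other genes with 95% intervals from the limma fit, for INDY and DKO minus WT and CSB, for CSB and DKO minus WT and INDY, and for KD minus SD. All intervals include 0 except that of Slc13a3 in the CSB and DKO comparison (-0.39 to -0.05), which did not pass adjustment over all genes.

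The 4 single comparisons of the Slc13a5 genotype gave the same counts of 0, and the largest values came from INDY against WT on SD. There all 8 differences were above 0, from 0.06 to 0.35 with a median of 0.19, and 2 of 8 had an unadjusted p under 0.05, against 14.3% of all tested genes. Acaca was 3189, 3702, 2756 and 2739 in WT SD and 3238 to 4731 in INDY SD, with a median of 3757. The groups overlapped, and the difference was 0.31 (SE 0.14, limma adjusted p = 0.338). Cs was 5313, 5458, 4520 and 4757 in WT SD and 5445 to 6056 in INDY SD, with a median of 5696. WT SD 40 alone reached into the INDY range, and the difference was 0.20 (SE 0.08, limma adjusted p = 0.320). Slc25a1 was 427.8, 637.2, 313.0 and 455.5 in WT SD and 436.2 to 712.6 in INDY SD, with a median of 559.4 and a difference of 0.35 (SE 0.19, limma adjusted p = 0.391).

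The WT SD group stood low in this set of genes. It had the lowest mean of the 8 groups for 5 of the 8, Slc25a1, Cs, Acly, Acaca and Fasn, and it enters INDY against WT and the diet comparison within WT alike. Its mean oligodendrocyte level was also the lowest, 11.60 against 11.71 to 11.98 in the other groups, and 11.89 in INDY SD. With the oligodendrocyte and choroid plexus levels as covariates, the INDY against WT difference on SD was 0.14 for Slc25a1, 0.14 for Acly, 0.14 for Cs, 0.21 for Acaca, 0.04 for Fasn, 0.03 for Acss2, 0.19 for Slc13a3 and 0.06 for Aco1. Without WT SD 41, the lowest library for Slc25a1, the difference was 0.18 for Slc25a1 and 0.16 for Acly, and without WT SD 40 it was 0.52 and 0.43. On KD, INDY against WT ran from -0.14 (Cs) to 0.33 (Slc13a3), with limma adjusted p from 0.768 to 0.996. DKO against CSB ran from -0.29 to 0.05 on SD and from -0.09 to 0.12 on KD. Marker levels of other tissue moved here too. For INDY against WT on SD, 19 of 21 forebrain genes (median 0.994) and 21 of 21 liver genes (2.587) were above 0. Of the choroid plexus genes it was 0 of 18 (-0.707). For DKO against CSB on SD it was 21 of 21 forebrain genes (2.135). Their part was not tested, beyond the fits with levels as covariates.

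Among the 8 other genes and the 3 averaged comparisons, Slc13a3 in the CSB comparison was the 1 value with an unadjusted p under 0.05. For CSB and DKO against WT and INDY, limma called 0 of the 9 citrate genes, where 0.796% of all tested genes were called and 4009 of 21367 had an unadjusted p under 0.05. Slc13a3 was 252.0 to 522.2 in the 20 CSB and DKO libraries, with a median of 380.9, and 283.1 to 642.1 in the 20 WT and INDY libraries, with a median of 446.7. The ranges overlapped, and the difference was -0.22 (SE 0.08, limma adjusted p = 0.158). The meningeal fibroblast level, with which Slc13a3 moved, was 6.52 to 8.96 in CSB and DKO and 6.10 to 9.57 in WT and INDY, with means of 7.98 and 8.29 and 0 of its 12 genes at 0 throughout. In this comparison 0 of its 12 genes had a difference above 0, and their median was -0.295; their part in the difference was not tested. Without the 12 libraries of high forebrain level the Slc13a3 difference was -0.03. The other 7 genes that were read throughout ran from -0.05 (Acss2) to 0.14 (Slc25a1).

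Slc13a3 also differed in order between the 4 genotypes, but the interaction did not pass adjustment over all genes. Its mean was 403.1 ± 76.2 in WT (SD, n = 8), 473.1 ± 75.7 in INDY (n = 12), 403.4 ± 72.9 in CSB (n = 11) and 354.2 ± 68.5 in DKO (n = 9). INDY thus stood highest and DKO lowest, and all 4 genotypes overlapped. The interaction of the Slc13a5 and CSB genotypes was -0.43 (SE 0.17, limma adjusted p = 0.9997), with a 95% interval of -0.77 to -0.09. In the same interaction 1 of 12 meningeal fibroblast genes (median -0.585) and 0 of 21 liver genes (median -2.195) had a value above 0, and their part was not tested. For this interaction limma called 0 of 21367 genes (0%), and 663 had an unadjusted p under 0.05.

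The ketogenic diet gave no call among the 9 genes. Averaged over genotypes, limma called 0 of 21367 genes (0%), 676 had an unadjusted p under 0.05, and 0 of the 9 were among those. The 8 other genes ran from -0.08 (Acly) to 0.13 (Acaca), with 4 above and 4 below 0. Within genotypes, limma called 0 genes (0%) in WT, 0 (0%) in INDY and 0 (0%) in CSB, with 2868, 989 and 732 at an unadjusted p under 0.05, and 1 (0.00468%) in DKO, Catspere1, which is not of this set.

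None of the largest diet differences of single genes within a genotype was called, and those of Acss2 and Acly shrank without 1 library. Acaca in WT had a mean of 3096 ± 454 on the standard diet and 3865 ± 528 on the ketogenic diet (SD, n = 4 each), a log2 difference of 0.32 (SE 0.16, limma adjusted p = 0.368), with overlapping groups. Acss2 in DKO was 996.8, 1467, 1437 and 1427 on SD and 1533, 1465, 1638, 1588 and 1603 on KD. The difference was 0.25 (SE 0.10, limma adjusted p = 0.588), and 0.12 without DKO SD 1, the library at 996.8. Acly in INDY was 5234 to 8689 on SD, with a median of 6970, and 3712 to 7765 on KD, with a median of 5789, a difference of -0.29 (SE 0.15, limma adjusted p = 0.981), and -0.17 without INDY KD 20. Cs in INDY had a median of 5696 on SD and 5122 on KD (-0.18, SE 0.07, limma adjusted p = 0.981), and stood higher on KD in WT (0.16, SE 0.09). KD against SD was 0.02 for Cs in CSB and -0.02 in DKO. The interaction of the Slc13a5 genotype and diet, averaged over both CSB states, gave -0.19 for Cs (SE 0.08, limma adjusted p = 0.229), and the difference in diet response between INDY and WT alone was not tested. For this interaction 0 of 21367 genes were called (0%) and 3658 had an unadjusted p under 0.05. Marker levels moved as well. In WT, 19 of 21 forebrain genes were above 0 for KD against SD (median 1.679). It was 13 of 21 in INDY (0.033) and 2 of 21 in DKO (-1.443). Of the choroid plexus genes it was 0 of 18 in WT (-1.817). In the interaction with diet 1 of 21 forebrain genes (-1.918) and 18 of 18 choroid plexus genes (1.507) were above 0. Their part in these differences was not tested, beyond the fits with levels as covariates.

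The wider pathway was followed in 8 lists of 167 genes, 165 of them tested, and limma called 0 of these in each of the 13 comparisons. In the averaged Slc13a5 comparison 9 of the 165 (5.46%) had an unadjusted p under 0.05, against 9.38% of all genes, and their median difference was 0.04. For INDY against WT it was 31 (18.8%) on SD, against 14.3% of all genes, and 15 (9.09%) on KD, against 6.59%. For DKO against CSB it was 14 (8.5%) on SD, against 13.6% of all genes, and 3 (1.82%) on KD, against 1.73%. The values of single lists that follow are from the averaged Slc13a5 comparison, where the median over all tested genes was 0.005. How many of all tested genes lay above 0 was not counted. The 20 genes of cholesterol synthesis, which draws on the same cytosolic acetyl-CoA, had 17 above 0 and a median of 0.096. The 30 enzymes around citrate, isocitrate and oxaloacetate had 24 above 0 and a median of 0.055, and the 25 genes of fatty acid and lipid synthesis had 16 above 0 and a median of 0.026. The 28 genes of acetyl-CoA supply and disposal had 19 above 0 and a median of 0.035. Medians were 0.007 for 23 SREBP, LXR and ChREBP regulators, 0.024 for 17 genes of AMPK and carboxylase control and 0.027 for 10 ketone body genes.

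Among 16 tested relatives and other organic anion carriers, the median in the averaged Slc13a5 comparison was 0.053. Slc13a1, a sulphate carrier of the same family, had the lowest value, -0.32 (SE 0.12, limma adjusted p = 0.512), and Slc13a4, another sulphate carrier, the highest, 0.28. In the averaged diet comparison 3 of the 165 genes (1.82%) had an unadjusted p under 0.05, against 3.16% of all genes. The lowest was Pck1, which makes phosphoenolpyruvate from oxaloacetate, at -1.60 (SE 0.61, limma adjusted p = 0.9997). In the same comparison 1 of 21 liver marker genes was above 0 (median -0.346), and their part in the Pck1 value was not tested. In the averaged CSB comparison 17 (10.3%) had one, against 18.8% of all genes. The smallest p there was that of Usf2, an E-box factor, at 0.15 (SE 0.04, limma adjusted p = 0.0971). The genes named from these lists were chosen after their values were seen.

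For 3 of the 9 genes the search for shared sequence found other transcripts that could share reads. Genes that overlap in position only, as found for Slc13a3, Cs and Acly, are not counted here. Acaca has a processed pseudogene, Gm5182, that matches it at 99.2% over 6118 bases and was listed at 2.201 to 36.5, far below Acaca. Acss2 overlaps Ggt7 and Gss on the opposite strand, with 169 shared exon bases for Ggt7, and whether the counting used the strand is not given in the sources used here. The antisense transcript Acss2os shares 225 bases with Acss2 and did not exceed 1.11 in any library. Slc13a5 shares 196 bases with the antisense transcript 1700051A21Rik, which did not exceed 1.06 in any library.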

How the data were processed

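Ribosome-depleted total RNA from cerebellum was sequenced on a DNBseq platform, per the labels' protocols. The deposited values are a signal, estimated read counts normalised by the authors. Bowtie2, Salmon, DESeq2 and the build mm9 are named in the submitters' processing notes, without versions. The median ratio of every library to the geometric mean was 1.0038, and whole reads could not be recovered (5.88% to 74.6% of low values within 0.1 of a whole step), so no counting interval was computed. Symbols and positions came from GENCODE M21 on GRCm38 (54097 of 54331 IDs matched without version), and promoters from RefSeq; positions belong to these annotations.

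Log2(value + 1) was fitted with limma 3.58.1 (R 4.3.3; trend, robust) with 8 group means in 1 model, 13 contrasts and Benjamini-Hochberg adjustment at 0.05 over the 21367 genes with 10 or more in at least 4 libraries. The labels name no pairing, and the numbers in the library titles do not recur between groups, so no pairing was used. Whether libraries were related in another way is not given. The fit was tested on simulated data. Correlations used values centred on group means and 100000 permutations within groups (Python 3.11.15, scipy 1.17.1). Shared sequence was sought with minimap2 2.31-r1302. The 9 genes, the 8 pathway and 11 marker lists and the rule for named genes were chosen with earlier results of these data known. The rule covered the 9 members, Ercc6, called members of a pathway list, the 5 genes most like Slc13a5 and called neighbours. No pathway list member or neighbour was called. Slc13a1, Slc13a4, Pck1 and Usf2 were uncalled and were named outside the rule, after their values were seen. Called genes outside the lists, such as Heg1 and Catspere1, were also named outside it. Alternatives were 11 changes of processing and leaving out each library.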

Additional observations from a re-analysis of the deposited data

Results flagged for a closer look

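In 5 of 70 sets of values of a gene within a group, 1 library stood far from the others by Dixon's ratio; chance alone marks about 1 in 20 sets. Slc13a5 was at 0.8239 in INDY KD 15 and at 0.9344 in DKO KD 47, where all other libraries of these groups were listed at 0. With the others at 0 any value above 0 gives the highest possible ratio, so these 2 show only that the value was above 0. Slc13a3 was at 334.6 in WT SD 41, against 438.2 to 454.5 in the other 3 libraries, and the same library had the lowest Slc25a1 of all 40. Acly was at 7838 in DKO KD 24, against 6136 to 6440 in the others. Acss2 was at 996.8 in DKO SD 1, against 1427 to 1467; this library had the highest forebrain level, 10.15, and the lowest Slc13a3 of all 40.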

How the results depend on the processing

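No paired analysis was run, because the labels name no pairing and do not say what a library number means. Over 117 pairs of gene and comparison and 5922 values under alternatives, 0 calls were lost or gained: the 8 other genes were called in no comparison, and Slc13a5, which had to differ, in its 5. The Slc13a5 average ranged from -7.78 to -4.63, both extremes with another added constant, and from -6.89 to -6.79 when single libraries were left out. Of 5264 values of the 8 other genes 187 (3.55%) had the other sign, and the lowest adjusted p was 0.13, for Slc13a3 in the CSB average without DKO SD 35. The number of all genes called moved more. The CSB average called 116 to 1378 genes in place of 170, the highest when INDY KD 22 was left out, 959 when DKO KD 23 was, and 727 when the 12 libraries of high forebrain level were. Without INDY SD 33 it was 276. For the Slc13a5 genotype the averaged count ran from 1 to 6 in place of 3, INDY against WT from 1 to 2 on SD and from 1 to 24 on KD in place of 2, and DKO against CSB from 1 to 5 on SD and from 1 to 6 on KD. For diet the counts ran from 0 to 6 on average, 0 to 50 in WT, 0 to 1 in INDY, 0 to 2 in CSB and 0 to 2 in DKO, and for the interactions from 0 to 1 with diet and 0 to 4 with CSB. The depth is unknown, so whether values near 1 are single reads could not be determined.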
